A study of Mus musculus with 16 samples.

Results

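The data describe where the clock transcription factor BMAL1 was bound in mouse liver at ZT0, the time of lights on, and how the called binding sites differed between mice on a circadian misalignment protocol and control mice. The members are intervals of the genome whose BMAL1 peak call differed in the same direction in the male pair and in the female pair of libraries. Of 7043 merged intervals in the deposited annotation table, 2811 held a peak in at least 1 of the 4 ZT0 BMAL1 libraries. In 302 of these, a peak was called in the misaligned library and not in the control library of both sexes. In 2 the reverse held. An interval with a peak in the misaligned library only is called gained below, and one with a peak in the control library only is called lost. Both words describe calls, not a tested change in binding.

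The 4 libraries are chromatin immunoprecipitations with a BMAL1 antibody from livers of C57bl6 mice at ZT0, with 1 control and 1 misaligned library of each sex, out of 16 libraries in the series. All mice were 8 to 16 weeks old, were kept under 12 h of light and 12 h of dark, and ate a diet with 42% of calories from fat from the start of the control or misalignment schedule. The labels do not describe that schedule further. Each library was made from liver pooled from 3 to 4 mice, so the spread between animals cannot be seen, and the group and the library cannot be told apart. Peak calls do not measure expression, so the tissue was not checked by its expressed markers.

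BMAL1 pairs with CLOCK on E-boxes, of which CACGTG is the canonical form, and activates the period (Per) and cryptochrome (Cry) genes, whose proteins repress the pair. The same pair drives Nr1d1 and Nr1d2, which encode the REV-ERB repressors, and the PAR-bZIP factors Dbp, Tef and Hlf, which carry the rhythm to many metabolic genes of the liver. In mouse liver the binding of BMAL1 to these genes is known to cycle over the day, with its peak in the light phase.

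Promoter stretches beneath intervals that the results turn on are shown first, some with an E-box and some without. Only promoter windows were searched for it, not whole intervals. The sequences are from RefSeq on GRCm38.p6, 5′ to 3′ on the strand of the gene, with the E-box CACGTG in capitals. The first group lies within intervals gained in both sexes, at Tspan4, a tetraspanin gene, at Senp8, which encodes the NEDD8 protease, and at Hspd1, which encodes the mitochondrial chaperonin HSP60. The E-box starts at -51, -182 and -80 from the RefSeq start site.
Tspan4 (chr7:141476289-141476374, plus strand): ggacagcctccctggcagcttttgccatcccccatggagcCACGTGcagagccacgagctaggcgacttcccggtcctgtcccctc
Senp8 (chr9:59750786-59750871, minus strand): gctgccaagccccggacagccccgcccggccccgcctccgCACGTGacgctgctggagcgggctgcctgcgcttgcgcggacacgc
Hspd1 (chr1:55088278-55088363, minus strand): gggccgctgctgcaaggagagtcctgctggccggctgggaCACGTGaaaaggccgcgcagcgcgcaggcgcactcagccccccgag
The second group lies within intervals called in all 4 ZT0 libraries. They are at Ciart, a repressor of the CLOCK and BMAL1 pair with 3 E-boxes in its stretch, at Cry1 and at Tef.
Ciart (chr3:95882229-95882384, minus strand): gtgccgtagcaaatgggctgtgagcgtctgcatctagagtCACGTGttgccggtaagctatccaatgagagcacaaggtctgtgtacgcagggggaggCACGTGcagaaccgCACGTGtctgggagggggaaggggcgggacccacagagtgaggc
Cry1 (chr10:85185069-85185154, minus strand): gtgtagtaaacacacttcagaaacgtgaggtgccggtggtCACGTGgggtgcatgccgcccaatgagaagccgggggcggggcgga
Tef (chr15:81811236-81811321, plus strand): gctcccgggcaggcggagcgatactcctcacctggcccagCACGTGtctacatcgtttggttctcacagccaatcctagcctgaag
The E-box starts at -116 for the first of the 3 in Ciart, at -60 in Cry1 and at -138 in Tef. For contrast, the promoters of Junb and Nampt lay under intervals gained in both sexes and held no CACGTG within 250 bases before and 50 bases after the start site. The parts of these intervals outside that window were not searched, so an E-box elsewhere in them is not excluded. The 86 bases just before the start site are shown for each.
Junb (chr8:84978749-84978834, minus strand): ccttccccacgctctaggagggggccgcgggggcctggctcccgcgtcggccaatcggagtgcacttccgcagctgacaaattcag
Nampt (chr12:32820249-32820334, plus strand): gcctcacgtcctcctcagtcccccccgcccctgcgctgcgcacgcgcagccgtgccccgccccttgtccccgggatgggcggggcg

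More BMAL1 peaks were called in the misaligned library in both sexes. The male control library held 373 peaks and the male misaligned library 1864. The female control library held 225 peaks and the female misaligned library 1330. Peaks were 5.00 times as many in the misaligned library of the male pair and 5.91 times as many in that of the female pair. Over the pairs the geometric mean ratio was 5.44, with p = 0.5 when the signs of the log ratios were permuted (exact, two-sided), the smallest p that 2 pairs allow. Sequencing depth is not in the files. The lowest background that the peak caller used in a list, which scales with depth, was 6.16 fragments in the control and 4.32 in the misaligned library of males, and 4.84 and 5.06 in those of females. It was thus lower in the misaligned library of the male pair and about level in the female pair. Whether overall enrichment of a library and binding at a site differed cannot be told apart with 1 library in each group.

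The 302 intervals gained in both sexes were 10.7% of the 2811 intervals with a ZT0 peak. Gains in the male pair covered 56.7% of those intervals and gains in the female pair 44%, while losses covered 3.56% in males and 4.87% in females. The 302 were 19% of the intervals gained in males (exact 95% binomial interval 17.1 to 21.0) and 24.4% of those gained in females (22.0 to 26.9). These binomial intervals cover counting error only. A further 170 intervals gained in females were called in both male libraries, against 13 gained in males that were called in both female libraries. Below, those 170 count as gained in females only and those 13 as gained in males only, since these terms describe the gain and not the peak. The 2 intervals lost in both sexes were 0.0711% of the 2811. The numbers depended on list length: with each list shortened to its 225 strongest peaks, 34 intervals were gained and 10 were lost in both sexes.

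**Figure D1:**
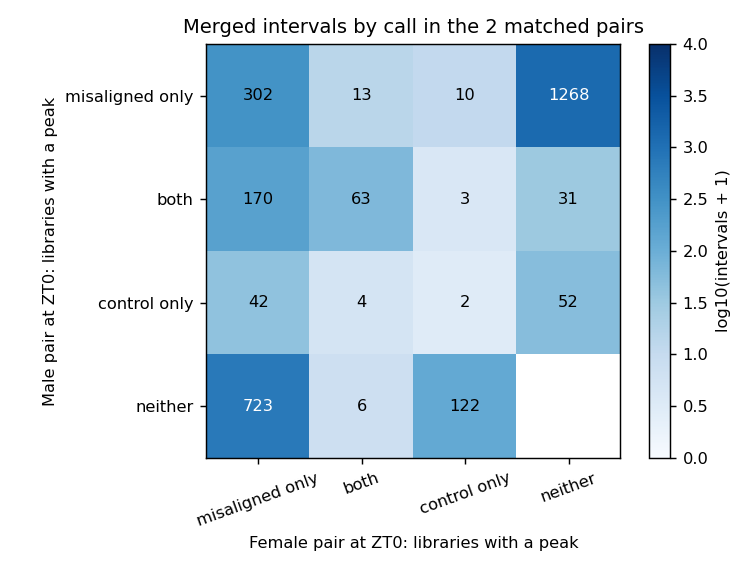
Merged intervals by which library of the male pair (rows) and of the female pair (columns) had a ZT0 peak; each cell prints the number of intervals and its colour is log10 of that number plus 1. The cell gained in both sexes holds 302 intervals, the cell lost in both holds 2, and the largest cells are 1268 and 723 intervals gained in 1 sex with no peak in the other.

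The male control library shared more of its intervals with the female misaligned library than with the female control. Of 367 intervals called in the male control, 279 were called in the female misaligned library (76.0%, exact 95% interval 71.3 to 80.3) and 72 in the female control (19.6%, 15.7 to 24.1). Of 223 intervals called in the female control, 89 were called in the male misaligned library (39.9%, 33.4 to 46.7) and 72 in the male control (32.3%). The lists differ in length, so these shares are given as they stand.

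The intervals gained in both sexes lay mostly at promoters. The authors' annotation placed 178 of them at a promoter (58.9%), 52 in introns, 45 between genes, 18 in exons and 9 at transcription ends. The promoter share was 44.4% over all intervals with a ZT0 peak, 33.9% of those gained in males only, 54.6% of those gained in females only and 69.8% of the 63 called in all 4 libraries. By distance, 137 of the 302 (45.4%) lay within 1 kb of the start site of the nearest gene, and 218 (72.2%) within 10 kb. The share within 1 kb was 36.8% over all intervals with a ZT0 peak and 29.3% of those gained in males only. It was about level with the 45.4% in those gained in females only (45.1%) and those called in all 4 libraries (44.4%). Within 10 kb the share was 58.2% for males only, 68.6% for females only and 79.4% for all 4 libraries. The nearest genes numbered 293, and 225 intervals had a protein-coding gene as nearest. All 302 were on chromosomes 1 to 19, X or Y.

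These peaks had a median rank of 573 of 1864 in the male misaligned list and 546 of 1330 in the female misaligned list, where rank 1 is the strongest. Fold enrichment at the summit over local background, the peak caller's ratio, had a median of 4.09 in the male misaligned library (2.23 to 11.3) and 4.23 in the female misaligned library (1.80 to 10.5). The median was 33 summit fragments in the male library (17 to 116) and 35 in the female (19 to 166). Fold enrichment was higher in the male library at 147 intervals and higher in the female at 155. Of the 100 strongest peaks, 12 in the male misaligned and 9 in the female misaligned list were intervals gained in both sexes, while intervals called in all 4 libraries gave 36 and 38. The whole lists covered 1860 intervals in the male and 1323 in the female misaligned library. In each, 302 were gained in both sexes and 63 were called in all 4 libraries. The male and female summits lay a median of 41 bases apart, and 232 of the 302 pairs of summits lay within 100 bases.

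The call has a threshold, and the weakest members sat just above it, at a -log10 q of 1.35 in the male and 1.31 in the female misaligned library. Values of sites just below it are not analysed here, since a list holds called peaks only. At the lowest background of each control library, the weakest call there needed 20 fragments, or 2.93-fold, in the male control and 17 fragments, or 3.08-fold, in the female control. The fold enrichment in the misaligned library was at or above that level at 276 of the 302 members in males, at 277 in females and at 257 in both. The members were chosen by calls in these same misaligned lists, which have a threshold of their own. High counts thus follow in part from that choice and do not test a change in binding. The local background of the same sites in the control libraries is unknown.

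**Figure D2:**
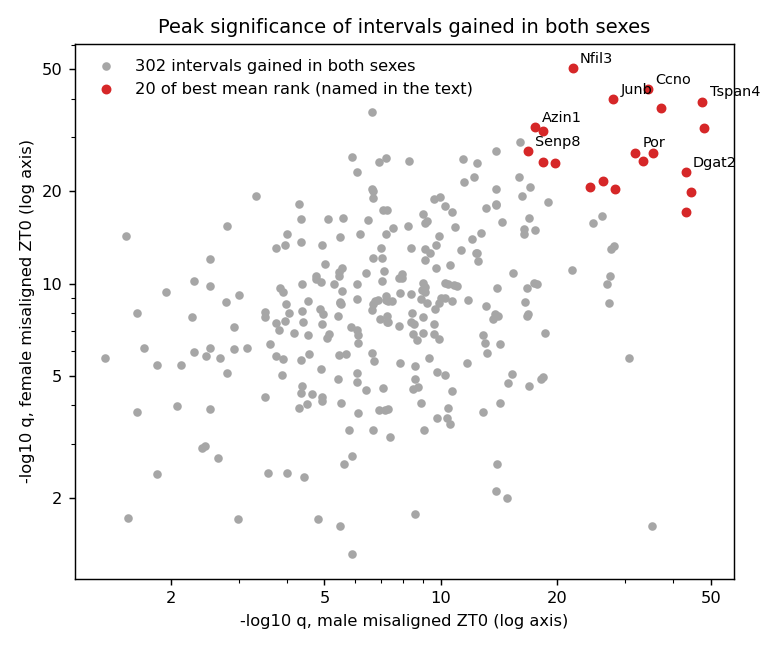
Each point is 1 of the 302 intervals gained in both sexes, at its -log10 q in the male misaligned (x) and the female misaligned (y) ZT0 library, both on log axes; red points are the 20 of best mean rank. Labelled red points include Tspan4 at 47.5 and 39.2 and Nfil3 at 22.0 and 50.4, while the weakest members sit near 1.3.

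The strongest of these intervals had Tspan4, Ccno, Junb, Nfil3, Por and Dgat2 among their nearest genes. The first 20 by mean rank over both misaligned lists each had no peak in either ZT0 control. At Tspan4 (chromosome 7, 141475950 to 141476892, promoter) the summit held 76 fragments over a background of 6.58 in the male misaligned library and 81 over 10.1 in the female. The enrichment was 10.2-fold and 7.37-fold, and all 4 ZT12 libraries also held a peak there. At Ccno (chromosome 13, 112987441 to 112987950), whose product cyclin O acts in the making of multiciliated cells, 62 fragments gave 8.61-fold in males and 72 gave 9.55-fold in females. Only the male misaligned library of the ZT12 set held that peak.

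Junb and Nfil3, both bZIP transcription factor genes, showed different positions. At Junb (chromosome 8, 84978631 to 84979147), an AP-1 subunit, the interval was in the promoter, with 80 fragments over 14.4 in males (5.25-fold) and 78 over 9.04 in females (7.87-fold). All 4 ZT12 libraries held it. NFIL3 represses the D-box sites that the PAR-bZIP factors activate. Its interval lay in an intron 6217 bases past the start site (chromosome 13, 52974461 to 52975252), with 45 fragments over 5.22 in males (7.40-fold) and 79 over 6.64 in females (10.5-fold). A second Nfil3 interval at -87006 bases from the start site was gained in both sexes too, at 4.61-fold and 4.58-fold.

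At Dgat2 (chromosome 7, 99182589 to 99183262), which encodes the last enzyme of triglyceride synthesis, 86 fragments over 10.4 gave 7.65-fold in males and 57 over 8.50 gave 6.11-fold in females. At Por (chromosome 5, 135674353 to 135675310), the reductase that passes electrons to cytochromes P450, 69 fragments over 9.02 gave 6.99-fold in males and 52 over 5.74 gave 7.86-fold in females. Azin1, an inhibitor of antizyme in polyamine control, had 45 and 60 fragments (5.92-fold and 8.33-fold). Senp8 had 5.37-fold and 6.56-fold. Rapgef1, a guanine nucleotide exchange factor, had 8.62-fold and 6.73-fold, and Eepd1, Ubald1 and Snx9 lay between 5.59-fold and 9.20-fold.

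In 7 of the 20, the nearest gene in the authors' table was a predicted or non-coding gene. The strongest were an interval nearest Gm22676, within 10 kb of Aven and Chrm5, at 11.3-fold in males and 7.43-fold in females, and one nearest Gm21786, at 9.33-fold and 8.44-fold. The others were nearest Gm24838, 2610002J02Rik, Gm29529, Gm37271 and Gm25301, with coding neighbours within 10 kb that included Nr3c2, Ski, Rgs8, Bcl2l2 and Ppargc1b in that order.

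Most core clock genes with a ZT0 peak were called in control and misaligned libraries alike, and the list holds 22 genes. This list was written with earlier results of these data known, so its counts are no test of enrichment. An interval called in all 4 ZT0 libraries lay within 10 kb of 10 of the 22 (Bhlhe40, Ciart, Cry1, Cry2, Dbp, Nr1d1, Nr1d2, Per1, Per2 and Tef), against 0.132% of all RefSeq coding genes. An interval gained in both sexes lay within 10 kb of 2 as the nearest gene, Nfil3 and Hlf, against 0.726% of all coding genes, and within 1 kb of 0. Hlf had such intervals 5520 bases past its start, at 4.51-fold in males and 4.01-fold in females, and 18118 bases past it, at 8.89-fold and 5.16-fold. In all, 28 intervals with a ZT0 peak had a core clock gene as nearest: 14 were called in all 4 libraries, 4 were gained in both sexes, 5 in females only, 4 in males only, and 1, at Hlf, was called in the female control only. Arntl, Clock, Npas2, Rora, Rorb, Csnk1d and Csnk1e had none.

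Several clock genes held a further site that the female control alone lacked. An interval at -1378 bases from the start of Per1 had 5.89-fold in the male control, 8.06-fold in the male misaligned and 6.67-fold in the female misaligned library, and was not called in the female control. The same held for Cry2 at -1804 (7.19-fold, 12.3-fold and 12.0-fold) and for Hlf at -2935 (6.56-fold, 8.15-fold and 6.82-fold). At Bhlhe41, which encodes the DEC2 repressor, the male misaligned library had 12.1-fold at 9296 bases past the start and the female misaligned library 3.28-fold at -809 bases. These were different intervals, and neither control held a peak at either.

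Of 62 intervals called in all 4 ZT0 libraries with a value in each, signal was higher in the misaligned library of both sexes at 52, among them the 13 nearest a core clock gene. Signal is given here as excess, the fragments at the summit beyond the local background, in multiples of the list's lowest background. The Tef interval (chromosome 15, start 81810161) had 127 fragments over 7.62 in the male control and 292 over 10.8 in the male misaligned library, and 72 over 14.6 in the female control against 251 over 8.22 in the female misaligned. Its excess went from 19.4 to 65.0 in males (ratio 3.36) and from 11.9 to 48.0 in females (4.05). The Per1 interval at -5154 had 120 and 246 fragments in males and 84 and 201 in females, and its excess was 18.1 and 54.9 in males (3.04) and 15.8 and 37.3 in females (2.36). Both misaligned values were above both control values at each of these sites.

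The other clock genes followed the same order. Excess at the Hlf interval at -30177 bases was 9.59 and 43.1 in males (4.50) and 9.80 and 29.3 in females (2.98). At Per2 it was 13.1 and 56.2 in males (4.28) and 11.8 and 34.6 in females (2.93). At the Dbp promoter, -252 bases from the start, it was 13.8 and 40.8 in males (2.96) and 11.9 and 31.4 in females (2.64). At each of these sites both misaligned values lay above both control values. At Per3 it was 13.1 and 47.9 in males (3.65) and 9.48 and 31.9 in females (3.36). At the Nr1d1 interval at -3813 bases it was 19.5 and 44.3 in males (2.27) and 12.7 and 36.0 in females (2.85). Cry1 had the smallest ratio of the female pair among clock genes, with 12.7 and 25.1 in males (1.98) and 9.80 and 22.6 in females (2.31). Cry2 had 2.30 and 3.43, Ciart 2.24 and 2.72, and Bhlhe40 2.59 and 2.53. At Nr1d2 the female ratio was 2.67, while the male misaligned count could not be recovered and fold enrichment was 12.3 in the male control and 38.8 in the male misaligned library. An interval nearest Gm26249 in the promoter region of Kmt2a, a histone methyltransferase gene, was among the 5 strongest called in all 4 libraries, with 26.9 and 58.6 in males (2.18) and 12.3 and 39.1 in females (3.17). Over the 14 clock intervals the median ratio was 2.96 in males (1.79 to 4.50, 13 with a value) and 2.78 in females (2.31 to 4.05). Over 39 others without high background it was 1.73 in males (0.787 to 4.38) and 2.42 in females (0.895 to 3.84).

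High background means a local background at least 5 times the lowest of the list, in any ZT0 or ZT12 BMAL1 library. Per2 carries this flag from ZT12. Its strongest peak had 10.5 times the lowest in the female misaligned ZT12 library, and 1.15 to 2.09 times in the ZT0 libraries. Of 51 intervals with values in all 4 ZT0 libraries and without high background, 49 had more excess in the misaligned library of both sexes. The exceptions were Ppat, with a female ratio of 0.895, and 1600020E01Rik, with a male ratio of 0.787. The median ratio was 1.95 in males (n = 51) and 2.59 in females (n = 52). By fold enrichment, 37 of 52 were higher in the misaligned library of both sexes, with median ratios of 1.36 and 1.92, and 44 of all 63 were. At 8 nuclear intervals of high background other than Per2, among them 2 nearest Gm10721 and 2 nearest Gm10717 near the start of chromosome 9, the ratio was 0.297 to 0.763 in males and 0.766 to 1.22 in females. At 2 mitochondrial intervals it was 1.85 and 2.02 in males and 2.13 and 3.10 in females. The part of a library's overall enrichment in these ratios was not tested.

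**Figure D3:**
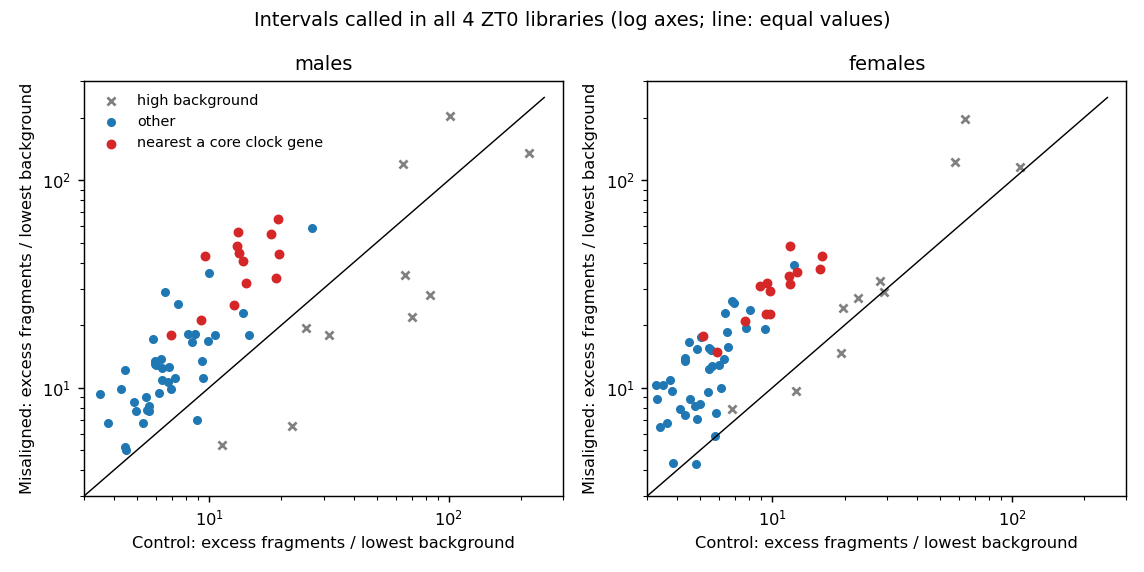
Each point is 1 interval called in all 4 ZT0 libraries, at its excess (fragments beyond local background, in multiples of the lowest background of its list) in the control (x) and the misaligned (y) library, log axes, with males on the left and females on the right; the line marks equal values. Red clock points lie above the line, with ratios of 1.79 to 4.50 in males and 2.31 to 4.05 in females, and grey crosses of high background (Per2, flagged at ZT12, is drawn red) fall on both sides of it.

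Lists of genes beyond the core clock had few members near intervals gained in both sexes. The lists were written with earlier results of these data known, so their counts are no test of enrichment. Of 16 clock output genes, 4 had one within 10 kb (Nampt, Pck1, Por and Klf9), set against 0.726% of all coding genes, and Tsc22d3 had one at 28093 bases. Nampt encodes the rate-limiting enzyme of NAD salvage. Its promoter interval (chromosome 12, 32819706 to 32820491) had 42 fragments in the male misaligned library (4.72-fold) and 57 in the female (6.56-fold). Pck1, which encodes a rate-limiting enzyme of gluconeogenesis, had 3.62-fold and 4.47-fold in its promoter. Of 17 Kruppel-like factors, 2 had one, Klf9 (3.29-fold and 4.83-fold) and Klf13 (4.39-fold and 3.69-fold). Another 3 had an interval lost in males and gained in females: Klf15 (5.02-fold in the male control and 3.77-fold in the female misaligned library), Klf3 (3.91-fold and 4.03-fold) and Klf10 (4.14-fold and 3.58-fold), which is also on the clock output list. Such intervals were 42 of the 2811 with a ZT0 peak. The share over all coding genes is not given here, so this count is not read as a result about the family.

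Single members stood in other lists. Of all coding genes, 0.726% were nearest, within 10 kb, to an interval gained in both sexes. Of 23 genes of lipid synthesis and storage, 2 had an interval within 10 kb, Dgat2 and Plin5 (3.97-fold and 3.84-fold), which encodes a lipid droplet protein of oxidative tissues. Of 17 stress response genes, 2 had one, Hspd1 (4.30-fold and 6.37-fold) and Nfe2l2 (4.89-fold and 4.77-fold), the latter encoding the NRF2 factor of the oxidant response. Rbp4, the retinol carrier of plasma, was the 1 of 18 hepatocyte secretory genes (3.73-fold and 4.11-fold). Ppara, a nuclear receptor that drives fatty acid oxidation in fasting, had an interval that was 36042 bases from the start site used by the table and was labelled a promoter of another transcript, at 3.81-fold and 9.10-fold. G6pc, which encodes the last enzyme of glucose release, had one at 11446 bases (5.68-fold and 3.85-fold), and Lss, which encodes a cholesterol synthesis enzyme, had one (5.09-fold and 3.59-fold). The Lss interval overlaps a RefSeq promoter window of that gene, although the table places it at -10283 bases from another start site. Pck1 was the 1 of 19 genes of glucose and insulin, and Por the 1 of 16 genes of bile acid and drug metabolism, with an interval within 10 kb. Of 13 liver transcription factors, 0 had one within 10 kb, and Onecut2 had one at -14435 bases (5.08-fold and 3.96-fold). Lists of fatty acid oxidation, inflammation, chromatin and ubiquitin genes had 0 at any distance. With lists this short and so low a share of all coding genes, these counts of 0 are not read as a result. The marker genes of 5 other cell types (lymphocytes, bile duct cells, endothelium, macrophages and stellate cells) had 0 ZT0 peaks within 10 kb in any of the 4 libraries. These lists held 6 to 8 genes each, and the share over all coding genes is not given here. The 19 fatty acid oxidation genes had 0 as well, so the marker counts do not bear on cell type.

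The E-box was more frequent in promoters beneath the gained intervals than in promoters at large. Of 32851 RefSeq promoter windows of 300 bases, 7.15% held CACGTG, a palindrome that reads alike on both strands. Of 202 windows that overlapped an interval gained in both sexes, 50 held it (24.8%). The share was 18.7% of 411 windows for males only, 28.9% of 494 for females only, 25.8% of 1249 for any ZT0 interval and 48.8% of 43 for intervals called in all 4 libraries. The gained intervals thus stood close to any ZT0 interval and below those called in all 4. With CACGTT and AACGTG counted too, the shares were 34.7% for gained in both sexes, 55.8% for all 4 and 11.4% for all windows. Of the 18 windows overlapped by named gained intervals, 3 held CACGTG, those of Tspan4, Senp8 and Hspd1 printed above.

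Summits sat near these E-boxes, and did so in intervals called in all 4 libraries as well. At the 42 gained intervals with CACGTG in a promoter window, the summit lay a median of 47 bases from the motif in the male misaligned library (27 of 42 within 100 bases) and 41 bases in the female (31 of 42). At 16 such intervals called in all 4 libraries, the medians were 67.5 and 52 bases in the same libraries. The motif was sought only in windows that overlap the interval, which keeps these distances short. A match is a description of letters and not of a bound site.

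**Figure D4:**
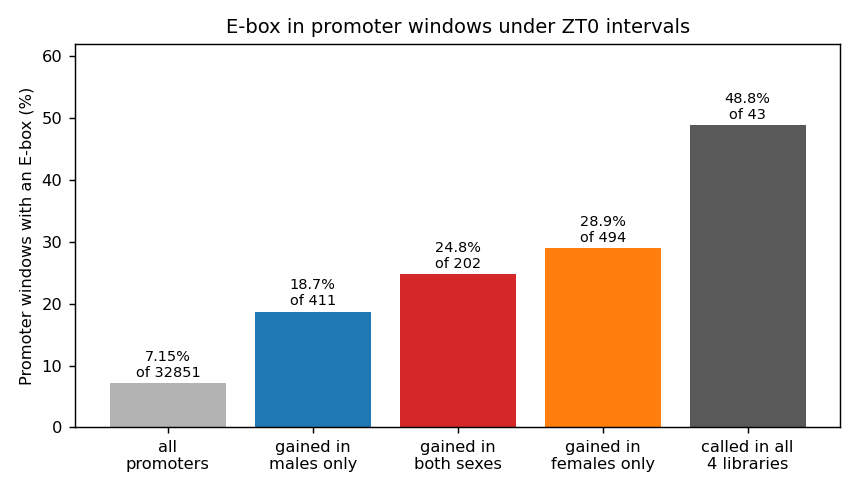
Bars give the percent of RefSeq promoter windows (300 bases) that hold CACGTG, for all windows and for windows overlapped by each class of ZT0 interval, with the number of windows printed above each bar; bars start at 0. Intervals gained in both sexes reach 24.8% against 7.15% of all windows and 48.8% for intervals called in all 4 libraries.

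The ZT12 libraries, 12 h later and not used to choose the members, held the gained sites mainly in 1 library. Of the 302 members, 249 were called in the male misaligned ZT12 library (82.5%, exact 95% interval 77.7 to 86.6), 39 in the male control (12.9%, 9.35 to 17.2), 21 in the female control (6.95%, 4.36 to 10.4) and 32 in the female misaligned library (10.6%, 7.36 to 14.6). Over all intervals with a ZT0 peak the shares were 49.9%, 7.86%, 4.13% and 6.15% in the same order. That male misaligned ZT12 list held 5542 peaks, against 290 in the male control, 141 in the female control and 221 in the female misaligned list. In 50 members no ZT12 library held a peak, in 188 it was 1 library, and in 6 it was all 4. Of the named genes, Tspan4, Junb, G6pc and Gm21786 were in all 4, while Nfil3, Ccno, Azin1, Hspd1 and Ppara were among those in the male misaligned library alone.

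By class, intervals gained in males only were called in the male misaligned ZT12 library in 36.8% of cases and those gained in females only in 54.5%. Intervals called in all 4 ZT0 libraries were called at ZT12 in 77.8% in the male control, 100% in the male misaligned, 61.9% in the female control and 66.7% in the female misaligned library. The class gained in both sexes lay below the all 4 class and above both single-sex classes in each ZT12 library.

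**Figure D5:**
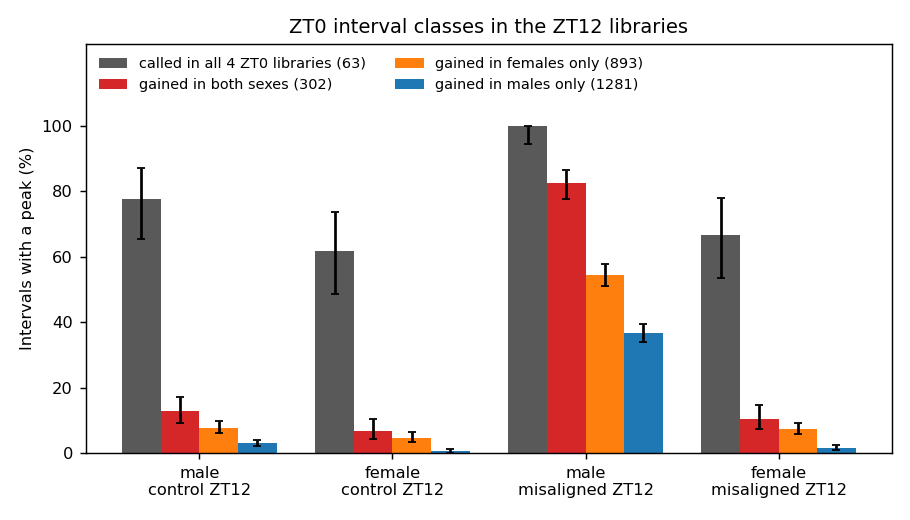
Bars give the percent of intervals in each ZT0 class that had a peak in each ZT12 BMAL1 library, with exact 95% binomial intervals as error bars (counting error only) and the number of intervals in the legend. Gained in both sexes (red) reaches 82.5% in the male misaligned library and 6.95% to 12.9% in the other 3, below intervals called in all 4 ZT0 libraries throughout.

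Both intervals lost in both sexes lay in sequence of high background near the start of chromosome 9. At Gm10722 (3002096 to 3002998) the male control had 1170 fragments over 706 (1.66-fold) and the female control 396 over 234 (1.69-fold). At Gm17535 (3034655 to 3035418) it was 411 over 165 (2.48-fold) and 162 over 40.7 (3.91-fold). With peaks of high background removed, 0 intervals were lost in both sexes.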

How the data were processed

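BMAL1 chromatin immunoprecipitation from liver was analysed in 4 ZT0 libraries, with the 4 ZT12 BMAL1 libraries used for description. The submitters' processing notes name BWA 0.7.17-r1188, MACS2 2.2.7.1 and the build GRCm38, without settings. The deposited peak lists, 1 for each library, give the authors' score, a fold enrichment (a ratio over local background), and -log10 p and -log10 q for each peak. The authors' merged table gives a true or false call for each library and the nearest gene. Its calls differed from the lists in 0 cases at ZT0.

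Summit fragments and local background were recovered from fold and p with a pseudocount of 1 fragment, to a relative tolerance of 0.0001, for 99.9 to 100% of peaks in each ZT0 list. This step was tested on simulated data. High background means at least 5 times the lowest of a list, and an interval was flagged if any ZT0 or ZT12 list had such a peak in it. The lowest background of a list stood in for depth, which it follows together with fragment length. Pairs were matched by sex, with 1 library per group, so there is no replicate error and p-values were given only for the peak ratio. Members and gene lists were chosen with earlier results of these data known. Named were the 20 gained intervals of best mean rank without high background, intervals lost in both sexes, core clock genes nearest a ZT0 peak, up to 4 members of each other list, the 5 strongest intervals called in all 4 libraries and the 5 strongest opposite ones. Promoter windows (250 bases before, 50 after) are from RefSeq, GRCm38.p6. Alternatives were lists of equal length, peaks with a -log10 q of 3 or more, assembled chromosomes only, 50% overlap, no high background, other distances and wider E-boxes. IgG libraries were not analysed here, and a few named genes are not reported here. Python 3.11.15, pandas 2.3.3, scipy 1.17.1 and matplotlib 3.10.9 were used.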

Additional observations from a re-analysis of the deposited data

Results flagged for a closer look

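Peak calls moved in opposite directions in males and females at 52 intervals, 1.85% of those with a ZT0 peak. In 42 the peak was lost in males and gained in females, and in 10 it was gained in males and lost in females. The difference between the sexes was not tested, since each group had 1 library. The 42 were 42% of the 100 intervals lost in males (exact 95% interval 32.2 to 52.3), and the 10 were 7.30% of the 137 lost in females (3.56 to 13.0). Over all intervals with a ZT0 peak, 44% were gained in females and 56.7% in males. Those shares count 723 intervals gained in females and 1268 gained in males that had no peak in either library of the other sex. Intervals lost in 1 sex cannot be of that kind, so the 42% and the 7.30% are not read against those shares. The 5 of highest -log10 q were all lost in males and gained in females. At Prdx6, an antioxidant peroxiredoxin, the male control had 4.62-fold and the female misaligned library 6.67-fold. At Smarca2, which encodes an ATPase of the SWI/SNF remodeler, the values were 5.03-fold and 8.02-fold. Intervals nearest Gm23527 (close to Marchf8 and Zfand4), Gm14236 (close to Ripor3) and 4831440E17Rik (close to Kmt2c) had 5.99-fold, 6.28-fold and 5.72-fold in the male control and 7.90-fold, 7.99-fold and 7.74-fold in the female misaligned library. Fdft1, a sterol synthesis enzyme gene, had an interval gained in males and lost in females. Klf15, Klf3 and Klf10 are given above. Of the 52, 47 (90.4%) were called in the male misaligned ZT12 library, against 49.9% of all intervals with a ZT0 peak.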

How the results depend on the processing

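Of 40 values recomputed under alternatives, 32 stayed within range of the reported value, meaning a count or ratio within 1.5 times of it or a share within its exact 95% interval, and 8 moved. That range let the 63 intervals called in all 4 libraries go to 42 with lists of equal length and with 50% overlap, and the 52 opposite intervals to 70 with 50% overlap. With each list shortened to its 225 strongest peaks, 34 intervals were gained in both sexes, 10 were lost in both and 32 were opposite; 19 of the 20 strongest gained intervals were still gained. Intervals lost in both sexes numbered 0 without peaks of high background and 6 when calls were joined by an overlap of at least 50% of both peaks. Core clock genes with an interval gained in both sexes numbered 0 within 1 kb. The share of gained intervals near a start site was 61.6% at 5 kb, and the E-box share was 34.7% with the wider motifs. Intervals gained in both sexes stayed between 257 and 302 under the other alternatives, of which the fold threshold that gave 257, excess by other measures and the settings of the peak ratio were chosen after seeing the data. The 257 counts members already called in the misaligned lists, so it is no independent check of their number. The libraries were paired by sex only, as in the peak ratio. With 1 library in each group, there were no replicate numbers to block on. Read depth is unknown, and 1 library per group leaves no replicate error.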

Other observations

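Several further genes near intervals gained in both sexes were picked out after their values were seen, so they carry no test. Max encodes the partner of MYC on E-boxes, and Mnt and Mxd3 encode repressors that also pair with it. Each had an interval gained in both sexes: Max (at -132 bases from its start, 3.42-fold in the male misaligned and 3.43-fold in the female misaligned library), Mnt (at -4057, 2.67-fold and 3.77-fold) and Mxd3 (at -259, 5.83-fold and 2.99-fold). A second Mnt interval, 2305 bases past its start, was lost in males (5.29-fold in the male control) and gained in females (3.86-fold in the female misaligned library). Agxt, Gpt and Arg1 encode enzymes of amino acid metabolism: Agxt (6.90-fold and 3.75-fold) and Gpt (4.24-fold and 5.87-fold) had intervals in the gene, and that of Arg1 lay at -21111 bases (4.27-fold and 4.52-fold). Cat, which encodes catalase, had 4.42-fold and 3.64-fold, and Cyp17a1, a steroid hydroxylase, had 3.48-fold and 5.17-fold.

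An interval nearest Gm17597 (chromosome 15, 81802273 to 81803234) overlapped a RefSeq promoter window of another Tef transcript that holds an E-box. It had 5.19-fold in the male misaligned and 3.55-fold in the female misaligned library, and no peak in either ZT0 control, while the Tef interval described above was called in all 4 libraries.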
